A study of Canis lupus familiaris with 34 samples.

Results

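The genes described here make and handle corticosteroids or belong to the angiotensin system, and their levels were read in the mitral valve of Cavalier King Charles Spaniels. The set held 9 genes chosen by name, namely CYP21A2, HSD11B1, HSD11B2, NR3C1, NR3C2, FKBP5, AGT, ACE and AGTR1. Of these, 8 had a feature in the table of 23768 features. AGT, the precursor of the angiotensin peptides, was not analysed here.

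The valves came from 34 privately owned dogs of about 10 years that were euthanized electively, so every dog had received butorphanol and dexmedetomidine as sedation and then pentobarbital. The 19 dogs called 10y-noCHF (10 females, 9 males) had no congestive heart failure (CHF), were staged A to B2 on the veterinary scale of valve disease, and mostly had myxomatous mitral valve disease (MMVD) themselves. The 15 dogs called 10y-MMVD-CHF (6 females, 9 males) had heart failure caused by MMVD, stage C, and part of that diagnosis was a response to diuretic treatment, so disease and drug treatment cannot be told apart. The groups therefore separate heart failure from earlier disease, not diseased from healthy valves, and each dog gave 1 library.

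Cortisol and aldosterone are made in the adrenal cortex from cholesterol, by a chain of enzymes in which CYP21A2, steroid 21-hydroxylase, is a late step. In target tissues HSD11B1 regenerates active cortisol and HSD11B2 inactivates it. The hormones act through the glucocorticoid receptor NR3C1 and the mineralocorticoid receptor NR3C2, and FKBP5 is both a co-chaperone of NR3C1 and one of its best known target genes. Renin and ACE release angiotensin II from angiotensinogen, and AGTR1 is the receptor through which angiotensin II raises blood pressure, aldosterone secretion and fibrosis.

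Total counts per dog lay between 46185256 and 82361245, and the median was 62167469 for 10y-MMVD-CHF and 59645613 for 10y-noCHF. The level of a gene is given as CPM, its counts per 1000000 counts of the library after TMM scaling. Markers of the valve interstitial cell (7 of 7 with counts) summed to a median of 17890 CPM in the 10y-MMVD-CHF dogs and 18739 CPM in 10y-noCHF, and markers of endothelium (6 of 6) to 613 and 636 CPM. The 19 cardiomyocyte markers ranged far more widely, from 81.4 to 55586 CPM in the 10y-MMVD-CHF dogs and from 58.2 to 27027 CPM in 10y-noCHF. None of the genes in the 9 marker lists passed the test between the groups. The adipocyte list had the largest shift, with a median sum of 3.79 CPM with heart failure and 10.6 CPM without. Fewer cells of a type and less RNA per cell cannot be told apart in such whole-tissue samples. A pair of 10y-MMVD-CHF dogs stood apart, CAV1047 with the highest cardiomyocyte sum and CAV614 with the highest red blood cell sum, 4268 CPM, and values without both are given where a call was lost or a value moved most.

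Of the 8 genes, 1 passed the test between 10y-MMVD-CHF and 10y-noCHF, CYP21A2, which was lower in heart failure. The paper on these same dogs had already listed CYP21A2 as differentially expressed and lower, so this call is not independent of that result. The test was edgeR's quasi-likelihood test with sex as a fixed effect and an FDR threshold of 0.1. Over all 19568 features tested, 23 passed (0.118%), 18 of them lower (0.092%). Those lower include TNXA, CYP21A1P and another CYP21A2 feature, which share bases with the CYP21A2 feature used, so this locus enters these shares more than once. Among the 8 genes FKBP5 had the next smallest p, with a higher level in heart failure that did not pass the FDR threshold. The other 6 genes did not pass either.

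**Figure D1:**
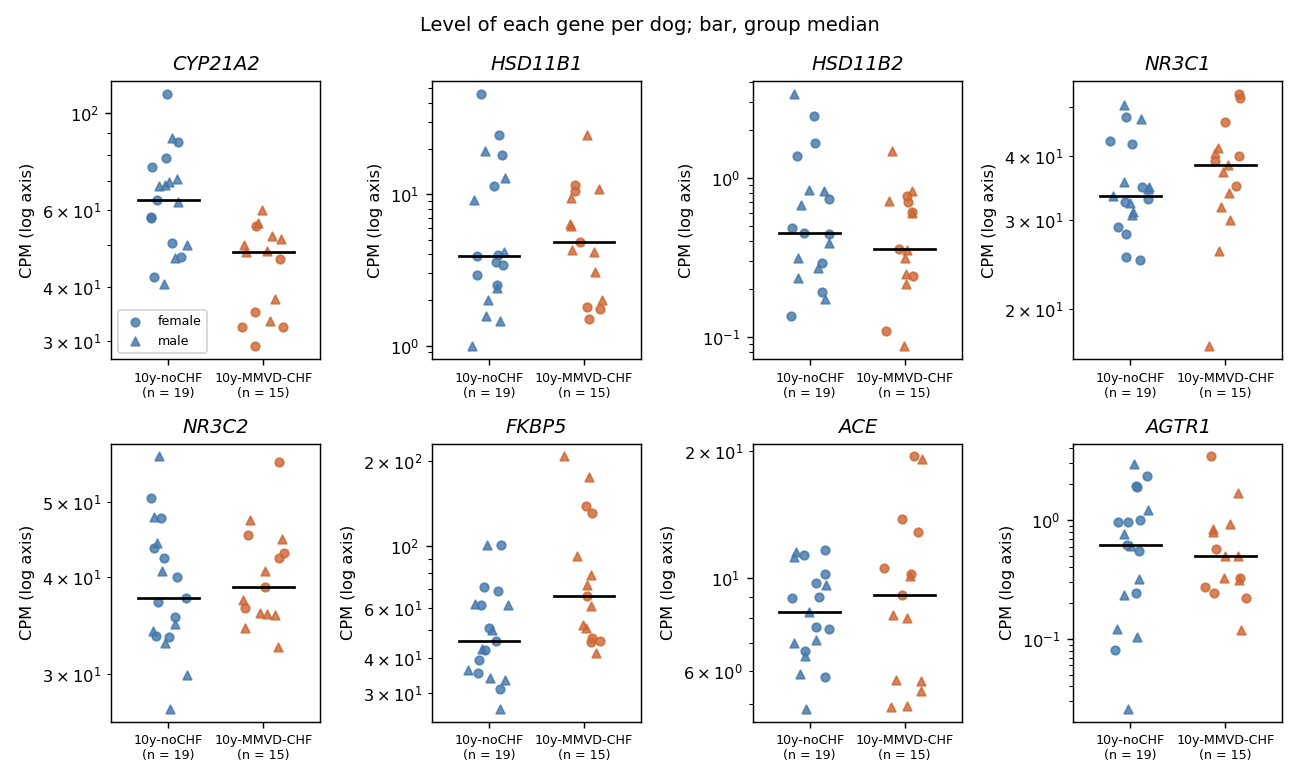
Level of each gene in each dog, in CPM on a log axis, with circles for females, triangles for males and a bar at the group median. All 15 10y-MMVD-CHF dogs lie below the 10y-noCHF median of CYP21A2 (63.3 CPM), while the groups overlap widely for the other genes.

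CYP21A2 lies on the plus strand of chromosome 12 in canFam4, chr12:1584768-1587792, and its feature joins 10 exons of 2053 bases in all. It had 1370 to 6606 counts per dog. The lowest, median and highest levels were 29.2, 48.2 and 60.1 CPM in 10y-MMVD-CHF, and 40.6, 63.3 and 111 CPM in 10y-noCHF. All 15 dogs with heart failure were below the median of the 10y-noCHF dogs, 6 of them were below the lowest 10y-noCHF dog, and 11 of the 19 10y-noCHF dogs were above the highest 10y-MMVD-CHF dog. The means were 44.5 ± 10.2 CPM (SD, n = 15) and 64.9 ± 17.9 CPM (SD, n = 19). The log2 fold change was -0.56 (SE 0.13, edgeR p = 0.000102, FDR = 0.0905), a ratio of 0.677 with a 95% interval from 0.569 to 0.806.

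The lower level was seen in both sexes. Females had a median of 33.7 CPM in 10y-MMVD-CHF (29.2 to 55.2 CPM, n = 6) and 60.6 CPM in 10y-noCHF (42.1 to 111 CPM, n = 10). Males had 49.9 CPM (33.5 to 60.1 CPM, n = 9) and 68.2 CPM (40.6 to 87.5 CPM, n = 9). The medians lay further apart in females, and the interaction of CHF and sex did not pass (difference of log2 fold changes, male minus female, 0.43, SE 0.24, edgeR p = 0.0857, FDR = 0.833).

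The FDR of CYP21A2 was close to the threshold. The call was lost on leaving out any 1 of 24 of the 34 dogs, where the FDR reached 0.239 without the 10y-MMVD-CHF dog CAV1519, while the log2 fold change stayed between -0.60 and -0.51 in all 34 such fits. The call was kept on leaving out any 1 of CAV1041, CAV1049, CAV1731, CAV1732, CAV576, CAV743 and CAV865 (10y-noCHF) or CAV1784, CAV1872 and CAV487 (10y-MMVD-CHF). In DESeq2, which called 0.327% of all features, CYP21A2 was again the only 1 of the 8 genes called, with an FDR of 0.00773.

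CYP21A2 shares bases with a neighbour on the other strand. Its last exon, chr12:1587025-1587792 (768 bases), holds 462 bases that are also the end of TNXA and TNXB, 22.5% of the CYP21A2 feature. TNXB encodes tenascin-X, an extracellular matrix glycoprotein that organizes collagen, and the feature named TNXA is the part of the TNXB locus nearest to CYP21A2. The authors' counting used no strand and gave a read to every feature it touched, so a read in the shared 462 bases counted for all 3 features.

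TNXA was the deeper feature. It held 666533 counts over 4695 bases (142 counts per base), against 120251 counts over 2053 bases for CYP21A2 (58.6 counts per base). Were the TNXA counts spread evenly, the shared bases would hold 65589 counts, which equals 54.5% of all CYP21A2 counts. The true split of reads along the last exon and between the strands cannot be told apart from counts per feature.

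CYP21A2 tracked TNXA from dog to dog. On residuals from the mean of each group and sex, Pearson's r of log2 CPM was 0.90 over 34 dogs (Spearman's rho 0.91; permutation p = 1.0e-05 for both, the smallest that the resamples can give; adjusted p = 7.8e-05 for r and 5.6e-05 for rho over 39 relations). The value was 0.97 within 10y-noCHF, 0.78 within 10y-MMVD-CHF, and 0.88 without the 2 dogs farthest from the TNXA median. With TNXB over its whole span r was 0.64 (rho 0.77; permutation p = 7.0e-05 and 1.0e-05, adjusted p = 0.00038 and 6.3e-05 over 38 relations), 0.74 and 0.55 within the groups, and 0.72 without the 2 farthest dogs. These features share reads, and the relation with TNXA was added after the data were seen.

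**Figure D2:**
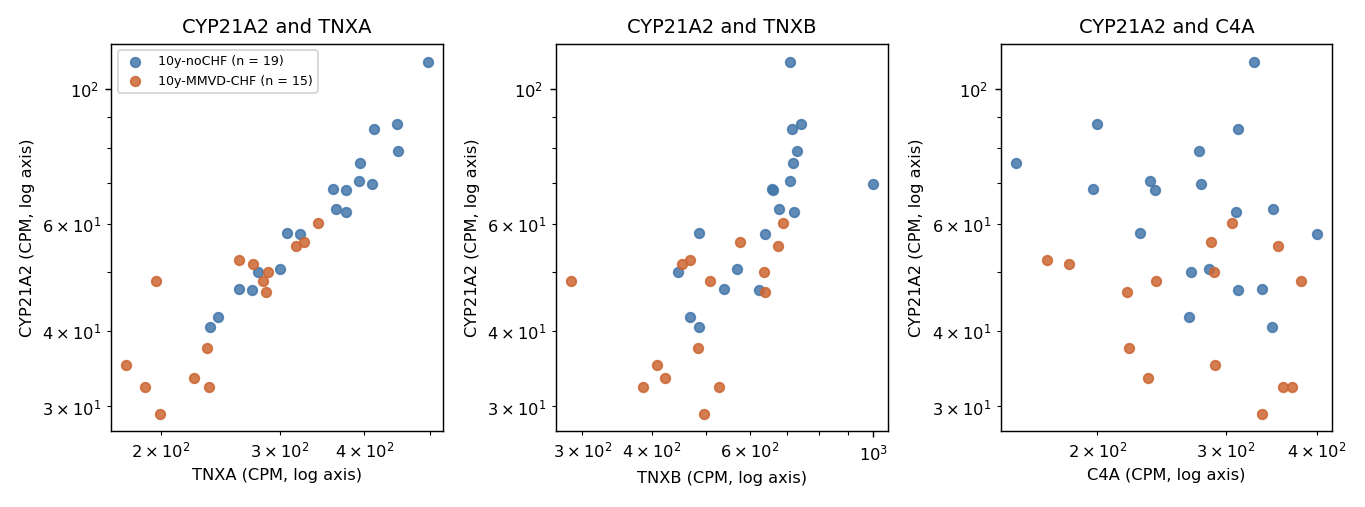
CYP21A2 against TNXA, TNXB and C4A in each of 34 dogs, in CPM on log axes, coloured by group. CYP21A2 follows TNXA closely (r = 0.90 after group and sex means are removed), with 1 10y-MMVD-CHF dog above the line of the others. The relation with C4A is drawn for comparison and was not tested.

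TNXA itself passed the test in the same direction as CYP21A2, and the paper had listed it too. Its levels ran from 178 to 341 CPM with a median of 261 CPM in 10y-MMVD-CHF, and from 236 to 497 CPM with a median of 364 CPM among the 10y-noCHF dogs, a log2 fold change of -0.48 (SE 0.11, edgeR FDR = 0.0879). TNXB had -0.34 (SE 0.11, edgeR p = 0.00315, FDR = 0.428), with medians of 497 CPM with heart failure and 660 CPM without.

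Per 100 counts of TNXA, CYP21A2 had a median of 17.2 counts in 10y-MMVD-CHF (13.8 to 24.5) and 17.9 counts in 10y-noCHF (16.7 to 22.3). The log2 ratio of CYP21A2 to TNXA differed by -0.07 between the groups, less than its spread between dogs of 1 group and sex (SD 0.15; permutation within sex, two-sided, p = 0.196). The ratio to TNXB differed by -0.19 (SD 0.29, permutation p = 0.0932). Adjusted over these 2 comparisons the values were 0.196 and 0.186. With the log2 CPM of TNXA as a covariate, the log2 fold change of CYP21A2 was -0.03 (SE 0.07, edgeR p = 0.669), and with TNXB it was -0.32 (SE 0.13, edgeR p = 0.0155, FDR = 0.589). TNXA and TNXB share reads with CYP21A2, so each ratio and covariate holds part of the CYP21A2 counts. These values therefore cannot show whether CYP21A2 changed apart from its neighbours.

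On the other side of CYP21A2 no neighbour passed. Of the 10 other features within 50 kb that overlap no part of it, the log2 fold changes lay between -0.28 (HSPA1B, edgeR p = 0.0105, FDR = 0.607) and 0.14 (STK19). C4A, a complement gene that ends 2692 bases before CYP21A2 and whose counts are identical to those of C4B, C4B_2 and LOC110384692, had 0.03 (SE 0.11, edgeR p = 0.758). CYP21A1P and the human-derived CYP21A2 feature had identical counts (119789 in all) and the same result as the canine feature, -0.56 (FDR = 0.0905). Both cover 89.4% of the bases of the canine feature and share 295 bases with TNXA, so they largely recount the same reads.

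The genes of steroid synthesis that mark the adrenal cortex were read at or near 0, apart from STAR in some dogs. CYP11B1 and CYP11B2, which complete cortisol and aldosterone, had 0 counts in all 34 dogs, which allows up to 3 counts or 0.0359 to 0.0769 CPM per library by counting error alone. CYP11A1, which starts the chain, had 265 counts over all dogs, CYP17A1 had 317 and HSD3B2 had 305, and STAR, which delivers cholesterol to CYP11A1, had 1427. NR5A1, the transcription factor of adrenal identity, had 76 and the ACTH receptor MC2R 13. The 8 adrenal cortex markers summed to 0.302 to 4.78 CPM in the 10y-MMVD-CHF dogs and 0.101 to 3.45 CPM in 10y-noCHF. In CAV2156, the 10y-MMVD-CHF dog with the highest sum, STAR alone reached 4.68 CPM.

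Of 16 genes of steroid synthesis, 11 could be tested and none passed the FDR threshold. At an unadjusted p under 0.05, 1 was higher in heart failure and 1 was lower, where 6.31% of all features were below that limit. FDXR, which passes electrons to mitochondrial steroid hydroxylases, had a log2 fold change of 0.30 (edgeR p = 0.0135, FDR = 0.626), and TSPO, a mitochondrial cholesterol-handling protein, had -0.21 (edgeR p = 0.0287). The lipoprotein receptor SCARB1 had 0.22. The median of the list was 0.04, beside 0.01 for all features.

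HSD11B1, the enzyme that regenerates cortisol, varied 46.7-fold between the lowest and highest dog and did not separate the groups. Its lowest, median and highest levels were 1.495, 4.84 and 24.5 CPM in the 10y-MMVD-CHF dogs and 0.987, 3.89 and 46.1 CPM in 10y-noCHF. This amounted to a log2 fold change of -0.29 (SE 0.51, edgeR p = 0.579). Its 95% interval, -1.30 to 0.72, leaves room for a difference of either sign, and the sign changed with limma voom.

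HSD11B2, the enzyme that inactivates cortisol, was near the limit of detection, with 6 to 224 counts per dog. It had 0.087, 0.356 and 1.48 CPM (lowest, median, highest) in the 10y-MMVD-CHF dogs and 0.135, 0.452 and 3.37 CPM in 10y-noCHF. This gave a log2 fold change of -0.68 (SE 0.43, edgeR p = 0.125), with a 95% interval from -1.52 to 0.17. The 10y-noCHF dog CAV285 was the highest, and without it the value was -0.27.

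Of 5 genes of cortisol supply and clearance, 4 were tested and none passed. H6PD, which supplies HSD11B1 with its cofactor, had a log2 fold change of 0.13 (edgeR p = 0.0379), with medians of 140 CPM in the 10y-MMVD-CHF dogs and 124 CPM in 10y-noCHF. The steroid reductases SRD5A1 and AKR1D1 had 0.18 (edgeR p = 0.0405) and 0.62 (edgeR p = 0.0503).

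NR3C1, the glucocorticoid receptor, overlapped fully between the groups but for 3 dogs. It had 16.9, 38.5 and 53.2 CPM in the 10y-MMVD-CHF dogs and 24.97, 33.4 and 50.5 CPM in 10y-noCHF, and the lowest dog was CAV614. The log2 fold change was 0.09 (SE 0.11, edgeR p = 0.429), with a 95% interval from -0.13 to 0.32. On the human-derived feature, which spans introns as well, it was -0.01.

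In females the NR3C1 median was 43.4 CPM in 10y-MMVD-CHF (n = 6) and 32.7 CPM in 10y-noCHF (n = 10), and in males it was 33.8 CPM (n = 9) and 34.5 CPM (n = 9). This was the smallest interaction p among the 8 genes (male minus female, -0.54, SE 0.21, edgeR p = 0.0172), and it did not pass over all features (FDR = 0.815). None of the 8 genes passed the interaction test, and neither did any of 19568 features (0%), although 6.02% had an unadjusted p under 0.05. DESeq2 called none of the 8 in the interaction either.

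NR3C2, the mineralocorticoid receptor, differed least between dogs among the 8 genes, with a spread of 0.25 (SD of log2 CPM within group and sex). It had 32.5, 38.8 and 56.3 CPM in the 10y-MMVD-CHF dogs and 27.04, 37.6 and 57.2 CPM in 10y-noCHF, with a log2 fold change of 0.05 (SE 0.08, edgeR p = 0.584), and its 95% interval as a ratio ran from 0.921 to 1.16. The feature spans 337163 bases with introns and shares 865 bases with an RPL7A feature on the same strand. That feature held 829701 counts over 3108 bases, against 83711 counts for all of NR3C2. A read in the shared bases counted for both features. How many NR3C2 counts lay there cannot be told from counts per feature, so the level, spread and fold change of NR3C2 may include RPL7A reads.

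Of 12 chaperones and coregulators of the receptors, all 12 were tested and none had an unadjusted p under 0.05. Their median log2 fold change was 0.02. The largest among those with the smallest p was 0.11 for the coactivator NCOA2 (edgeR p = 0.201), followed by 0.09 for the corepressor NCOR1 (edgeR p = 0.288) and 0.07 for the phosphatase PPP5C (edgeR p = 0.507). Among 7 tested genes of sodium transport, which aldosterone regulates in epithelia, none had an unadjusted p under 0.05 either. SGK1, the kinase induced by both receptors, had -0.17 (edgeR p = 0.131), NEDD4L, which removes the sodium channel from the membrane, had 0.12, and SCNN1B, a subunit of that channel, had -0.30.

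FKBP5 had higher values in heart failure, with the highest in a few dogs. The feature spans chr12:4903370-5011004 (107635 bases, introns included) and held 1729 to 14336 counts per dog. The lowest, median and highest levels were 41.4, 66.5 and 208 CPM in the 10y-MMVD-CHF dogs and 26.2, 46.0 and 101 CPM in 10y-noCHF. Of the 15 10y-MMVD-CHF dogs 12 were above the 10y-noCHF median and 4 were above the highest 10y-noCHF dog, namely CAV648 (208 CPM), CAV373 (176 CPM), CAV1876 (139 CPM) and CAV1047 (130 CPM). The other 11 lay within the range of the 10y-noCHF dogs. At the lower end, 7 of the 19 10y-noCHF dogs were below the lowest 10y-MMVD-CHF dog. CAV1047 and CAV373 also had the highest cardiomyocyte sums of their group (55586 and 22270 CPM), and CAV648 had its highest endothelium sum (1146 CPM).

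The FKBP5 means were 87.1 ± 52.1 CPM (SD, n = 15) and 52.3 ± 21.5 CPM (SD, n = 19). The log2 fold change was 0.73 (SE 0.23, edgeR p = 0.00305, FDR = 0.428), a ratio of 1.66 with a 95% interval from 1.22 to 2.27, and in DESeq2 the FDR was 0.162. Leaving out 1 dog at a time gave 0.59 (without CAV648) to 0.83, and the cardiomyocyte marker mean as a covariate gave 0.62. The interaction of CHF and sex was 0.37 (SE 0.46, edgeR p = 0.428).

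The other glucocorticoid targets had values on both sides of 0. Of 17 tested, none passed the FDR threshold, 9 had a positive and 8 a negative log2 fold change, and the median was 0.02. At an unadjusted p under 0.05, 1 was higher and 2 were lower in heart failure, where 6.31% of all features were below that limit. KLF9, a transcription factor, had a log2 fold change of 0.27 (SE 0.11, edgeR p = 0.0157), with medians of 94.5 CPM with and 78.8 CPM without heart failure. NFKBIA, the inhibitor of NF-kappa-B, had -0.28 (SE 0.10, edgeR p = 0.00538), with medians of 80.4 and 99.6 CPM in the same order. DUSP1, a phosphatase of MAP kinases, had -0.37 (SE 0.17, edgeR p = 0.0343).

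**Figure D3:**
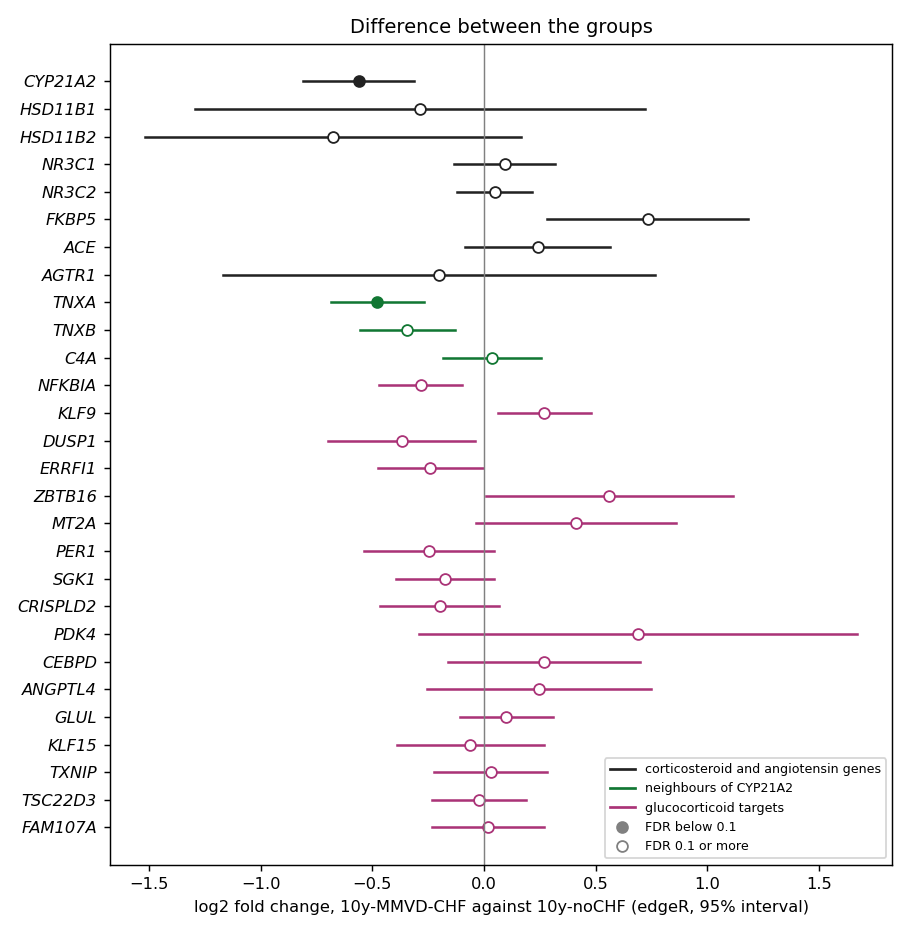
Log2 fold change of 10y-MMVD-CHF against 10y-noCHF with its 95% interval, for the 8 genes (black), the neighbours of CYP21A2 (green) and 17 glucocorticoid targets (purple), with filled circles at an FDR below 0.1. CYP21A2 (-0.56) and TNXA (-0.48) are the filled circles, and the targets lie on both sides of 0.

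Within the groups, FKBP5 moved with 2 of its fellow targets. With ZBTB16, a zinc finger transcription factor, r was 0.83 over 34 dogs on the same residuals (rho 0.84; permutation p = 1.0e-05 for both; adjusted p = 9.5e-05 and 6.3e-05 over 38 relations), 0.84 within 10y-noCHF, 0.82 within 10y-MMVD-CHF, and 0.79 without the 2 dogs farthest from the ZBTB16 median. With KLF9 r was 0.76 (rho 0.76; permutation p = 1.0e-05 for both; adjusted p = 9.5e-05 and 6.3e-05), 0.76 and 0.81 within the groups, and 0.77 without the 2 farthest dogs.

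The relations with the other 2 targets tested were weaker. With TSC22D3, the leucine zipper protein GILZ, r was 0.34 (rho 0.46; permutation p = 0.049 and 0.00653; adjusted p = 0.0931 and 0.0248), 0.55 within 10y-noCHF, 0.14 within 10y-MMVD-CHF and 0.27 without the 2 farthest dogs. With the clock gene PER1 r was 0.36 (rho 0.31; permutation p = 0.0396 and 0.0783; adjusted p = 0.0836 and 0.157), 0.67 within 10y-noCHF, -0.10 within 10y-MMVD-CHF and 0.22 without the 2 farthest dogs, and the difference of r between the groups was not tested. ZBTB16 had a log2 fold change of 0.56 between the groups (SE 0.28, edgeR p = 0.0547), with medians of 101 CPM in the 10y-MMVD-CHF dogs and 73.6 CPM in 10y-noCHF. TSC22D3 had -0.02.

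**Figure D4:**
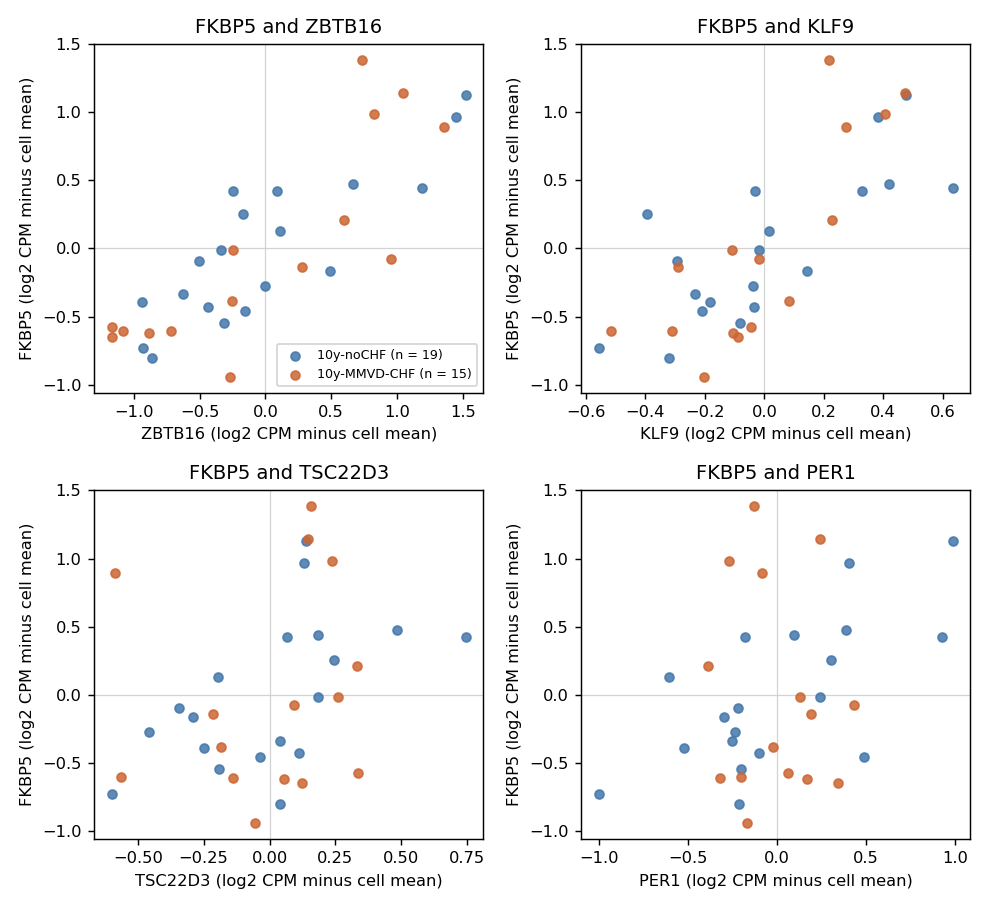
FKBP5 against ZBTB16, KLF9, TSC22D3 and PER1 in each dog, as log2 CPM minus the mean of the dogs of the same group and sex. Dogs of both groups line up along ZBTB16 (r = 0.83) and KLF9 (r = 0.76), and less closely along TSC22D3 (r = 0.34) and PER1 (r = 0.36).

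ACE, the enzyme that makes angiotensin II and sits mainly on endothelium, had 4.92, 9.08 and 19.4 CPM in the 10y-MMVD-CHF dogs and 4.87, 8.26 and 11.6 CPM in 10y-noCHF. The dogs CAV1196 (19.4 CPM), CAV648 (19.1 CPM), CAV1876 and CAV1519 were above every 10y-noCHF dog, and the remaining 11 were within the range of that group. Its log2 fold change was 0.24 (SE 0.17, edgeR p = 0.157), with a 95% interval from -0.08 to 0.56. For males against females the log2 fold change of ACE was -0.37 (SE 0.16, edgeR p = 0.0312, FDR = 0.9997), a comparison added after the data were seen. None of the 8 genes passed it, and 28 of all features did (0.143%).

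AGTR1 was read from few counts, 2 to 198 per dog, on a feature of 1972 bases that covers only the last part of the gene. It had 0.12, 0.496 and 3.44 CPM in the 10y-MMVD-CHF dogs and 0.026, 0.616 and 2.98 CPM in 10y-noCHF. The log2 fold change was -0.20 (SE 0.49, edgeR p = 0.686). Without the 10y-MMVD-CHF dog CAV1047, the highest of its group, it was -0.72, and without both CAV1047 and CAV614 it was -0.68. Without the 10y-noCHF dog CAV285 it was 0.19, the only fit with 1 dog left out in which the sign turned.

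Of 13 other enzymes of the angiotensin pathway, 12 were tested and none passed. MME, neprilysin, which degrades angiotensin and natriuretic peptides, had a log2 fold change of 0.82 (SE 0.34, edgeR p = 0.0228, FDR = 0.698). Its medians were alike, 1.22 CPM in the 10y-MMVD-CHF dogs and 1.23 CPM in 10y-noCHF, and the highest dogs reached 7.56 and 2.94 CPM. The mast cell enzyme chymase, CMA1, had -1.17 (SE 0.71, edgeR p = 0.112) at 520 counts in all, and cathepsin D, CTSD, had 0.11. Renin had 76 counts over all dogs, with 18 dogs at 0.

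Of 9 receptors and partners of angiotensin signalling, 7 were tested and none had an unadjusted p under 0.05. The smallest p was that of GNAQ, the G protein to which AGTR1 couples (log2 fold change 0.22, edgeR p = 0.0755), followed by the arrestin ARRB1 with 0.14 and the receptor-associated protein AGTRAP with -0.11. AGTR2 and MAS1, the receptors that oppose AGTR1, had 50 and 42 counts over all dogs and were not tested. Of the bradykinin genes, whose peptide ACE degrades, BDKRB1 had 0.36 (edgeR p = 0.081) and BDKRB2 0.04 (edgeR p = 0.776).

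Levels between genes can be compared only per length, and only where that length holds no introns. Among features made of exons, the median over 34 dogs was 25.3 CPM per kb for CYP21A2, 14.7 CPM per kb for NR3C1 and 4.69 CPM per kb for HSD11B1. The ranges of CYP21A2 (14.2 to 54.0 CPM per kb) and NR3C1 (7.10 to 22.4 CPM per kb) overlapped, and that of HSD11B1 (1.11 to 52.0 CPM per kb) covered that of NR3C1 and nearly all of that of CYP21A2. The CYP21A2 values include the reads in the bases shared with TNXA, whose share is unknown, so the order of CYP21A2 and NR3C1 is not settled. Features that span introns had medians of 0.480 (FKBP5), 0.411 (ACE), 0.113 (NR3C2) and 0.0787 CPM per kb (HSD11B2). Their lengths include introns of unequal length, so these values do not rank the genes. NR3C2 had a median of 38.2 CPM over 337163 bases, and HSD11B2 had 0.448 CPM over 5699 bases. Per kb of span, the ranges of FKBP5 and ACE overlapped. The range of HSD11B2 (0.0153 to 0.592 CPM per kb) held that of NR3C2 (0.0802 to 0.170 CPM per kb) and reached into those of ACE and FKBP5. AGTR1, on its single stretch, had 0.285 CPM per kb.

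Several of these genes followed the marker lists of cells in the tissue from dog to dog. Of 32 relations between the 8 genes and the mean log2 CPM of 4 marker lists, 14 had an adjusted p under 0.1 for Pearson's r. The share of all features with such relations was not determined, so this count shows nothing particular to these genes. The adipocyte list was not among the 4, and its relation with these genes was not tested. CAV1731, the 10y-noCHF dog with the highest HSD11B1 (46.1 CPM), had the highest cardiomyocyte sum of its group (27027 CPM). It also had the second highest adipocyte sum there (57.95 CPM). HSD11B1 had r = 0.73 with the cardiomyocyte mean over 34 dogs (rho 0.77; permutation p = 1.0e-05 for both; adjusted p = 9.5e-05 and 6.3e-05 over 38 relations), 0.79 and 0.64 within 10y-noCHF and 10y-MMVD-CHF, and 0.74 without the 2 farthest dogs. It had r = -0.77 with the valve interstitial mean (rho -0.81; permutation p = 1.0e-05 for both; adjusted p = 9.5e-05 and 6.3e-05), -0.78 and -0.77 within the groups, and -0.77 without the 2 farthest dogs. AGTR1 had r = 0.66 with the cardiomyocyte mean (rho 0.75; permutation p = 2.0e-05 and 1.0e-05; adjusted p = 0.000152 and 6.3e-05), 0.60 and 0.79 within the groups and 0.67 without the 2 farthest dogs.

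**Figure D5:**
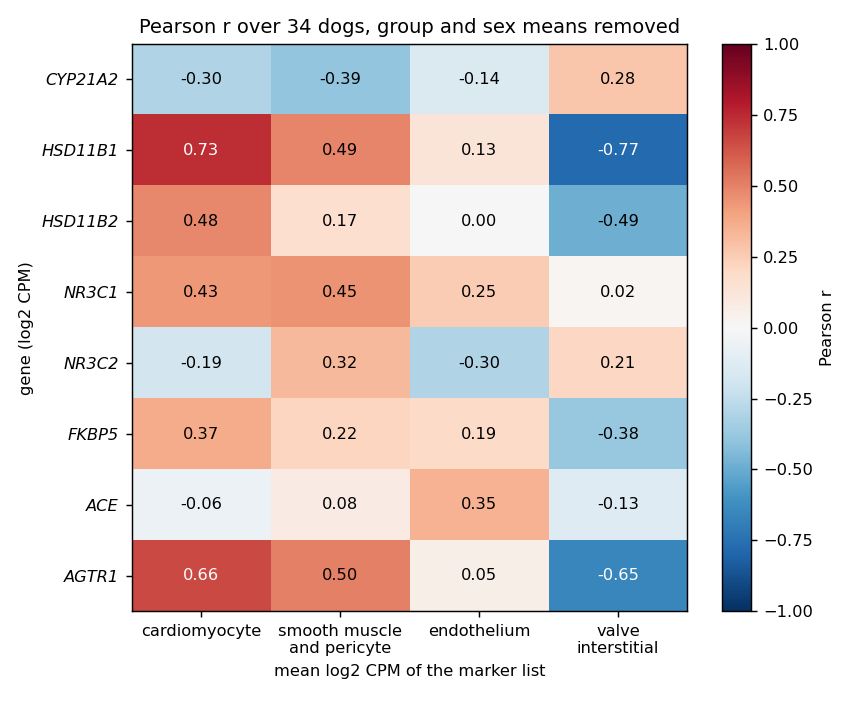
Pearson's r between each gene and the mean log2 CPM of 4 marker lists over 34 dogs, with the means of group and sex removed, from blue (negative) to red (positive). HSD11B1 and AGTR1 have their highest r with cardiomyocyte markers (0.73 and 0.66) and their lowest with valve interstitial markers (-0.77 and -0.65).

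HSD11B2 had r = 0.48 with the cardiomyocyte mean (rho 0.49; permutation p = 0.00428 and 0.00373, adjusted p = 0.0148 and 0.0157), 0.67 within 10y-noCHF, 0.15 within 10y-MMVD-CHF and 0.43 without the 2 farthest dogs. Differences of r between the groups were not tested for any of these relations. NR3C1 had r = 0.43 with it (rho 0.41; permutation p = 0.0102 and 0.0174, adjusted p = 0.0298 and 0.0442), 0.39 and 0.50 within 10y-noCHF and 10y-MMVD-CHF, and 0.37 without the 2 farthest dogs. FKBP5 had 0.37 (rho 0.35; permutation p = 0.0324 and 0.045, adjusted p = 0.0724 and 0.101), 0.14 and 0.62 within these groups, and 0.43 without the 2 farthest dogs. With smooth muscle and pericyte markers NR3C1 had r = 0.45 (permutation p = 0.00789, adjusted p = 0.025), slightly above its r with cardiomyocyte markers. HSD11B1 had 0.49 and AGTR1 0.50 with them (permutation p = 0.00295 and 0.00273, adjusted p = 0.0125 for both). Without the 2 farthest dogs these values were 0.38, 0.42 and 0.36. ACE had its highest r with endothelium, 0.35 (rho 0.25; permutation p = 0.0429 and 0.158, adjusted p = 0.0858 and 0.262), 0.14 and 0.60 within the groups, which was 0.17 without the 2 farthest dogs and so rested on them. CYP21A2 had its lowest r, -0.39, with smooth muscle and pericyte markers (rho -0.42; permutation p = 0.0218 and 0.013, adjusted p = 0.0593 and 0.0354), -0.37 and -0.44 within the groups, and -0.36 without the 2 farthest dogs. With no means removed this r was -0.18 (permutation p = 0.318, adjusted p = 0.465). NR3C1 and NR3C2 were weakly related to each other (r = 0.37, rho 0.29; permutation p = 0.0314 and 0.096, adjusted p = 0.0724 and 0.182), with 0.33 and 0.48 within the groups and 0.25 without the 2 farthest dogs.

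The genes whose levels most resembled each of the 8 were ranked by Spearman's rho over the 34 dogs with the means of group and sex removed, as a description. They were ZBTB16 (0.836), HIF3A (0.809) and KLF9 (0.756) for FKBP5, and ADGRB3 (0.748), DNM1P50 (0.723) and PER2 (0.706) for CYP21A2 once features that overlap it were left out. AGTR1 was followed most closely by FGF10 (0.9), RERGL (0.867) and ETFDH (0.857), and HSD11B1 by SLC38A1 (0.858), MTRNR2L8 (0.857) and PHACTR3 (0.855). NR3C1 was nearest to EIF3A (0.811) and to RGPD2 and RGPD3, which share identical counts (0.807), NR3C2 to FAM13A (0.785), FAM13A-AS1 (0.781) and SSBP3 (0.769), and HSD11B2 to TMEM71 (0.769), GUCA1B (0.766) and DAB1 (0.731). ACE had no close companion, with KIF20B (0.598), NEURL1 (0.594) and LOC100129203 (0.568) at the top. RERGL, LOC100129203 and PHACTR3 had only 206, 229 and 582 counts over all dogs, so their rho rests on few reads.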

How the data were processed

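Polyadenylated RNA of 34 mitral valves was sequenced as read pairs. The authors aligned reads to canFam4 with STAR, and the deposited values are raw counts from featureCounts 2.0.3. Its recorded command applied no strand, counted both reads of a pair separately and gave a read to every feature it overlapped. Features were exons of canine RefSeq genes or whole spans of aligned human transcripts, and the canine feature was used where a symbol had both. Starts are printed as listed, and those of canine features lie 1 base below the RefSeq start. The column of 1 further library belongs to no labelled sample and was not used.

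Groups and sexes follow the labels. The 19568 features that reached 100 counts over all dogs were tested with edgeR 4.0.16 (TMM, quasi-likelihood, sex as a fixed effect, Benjamini-Hochberg FDR threshold 0.1) in R 4.3.3. DESeq2 1.42.0, limma 3.58.1 voom, other scalings, filters and covariates, and leaving out each dog, were alternatives. Intervals are the estimate ± 1.96 SE. Log2 CPM had a prior count of 2. Correlations used residuals from the means of group and sex, with 100000 resamples, two-sided. The comparison of sexes, the ratios of CYP21A2 to TNXA and TNXB, and TNXA as a covariate or relation were added after the data were seen. The tests were tried on simulated data. The genes named are the 9 members, features within 50 kb of CYP21A2, of each list up to 3 genes with the smallest p, genes needed to check the tissue, and the 3 features most like each member. Renin, AGTR2 and MAS1 were named after their values were seen. Members and lists were chosen with earlier results of these data known.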

Additional observations from a re-analysis of the deposited data

How the results depend on the processing

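The number of the 8 genes called was 1 and became 0 without the sex term, with limma voom, at an FDR threshold of 0.05 and without both CAV614 and CAV1047. With 1 dog left out at a time it ranged from 0 to 1, and the log2 fold change of CYP21A2 from -0.60 to -0.51. CYP21A2 missed the threshold at -0.54 without the sex term (FDR = 0.105), at -0.54 with limma voom (FDR = 0.105), at -0.54 without both dogs (FDR = 0.14), at -0.32 with TNXB as a covariate and at -0.032 with TNXA, an alternative chosen after the data were seen. Both of these covariates share reads with CYP21A2. Under the other 9 alternatives CYP21A2 stayed called. The direction turned for HSD11B1 (0.066) and AGTR1 (0.066) with limma voom, for NR3C1 (-0.0067) on the human-derived feature, and for AGTR1 (0.19) without CAV285, whose values with 1 dog left out ran from -0.72 to 0.19. None of these was called under any setting, and for every change above other than the stricter threshold the cause was not tested. FKBP5 stayed between 0.62 and 0.73 over 12 alternatives, with an FDR from 0.162 to 0.458. Relations with an adjusted p under 0.1 for Pearson's r (permutation test) numbered 20 of 38, and 14 with no means removed. Lost were the relations of CYP21A2 and NR3C1 with smooth muscle and pericyte markers (adjusted p = 0.465 and 0.152). Also lost were NR3C1 with cardiomyocyte markers (0.134), ACE with endothelium (0.126), and FKBP5 with TSC22D3 (0.18) and PER1 (0.3). No paired analysis was possible because the labels give each dog its own number. HSD11B1, HSD11B2 and AGTR1 spread most between dogs (SD of log2 CPM 1.17 to 1.42), with standard errors of 0.43 to 0.51. The edgeR count of pathway genes called, 0 of 71, stood beside 8 at an unadjusted p under 0.05, a limit that 6.31% of all features passed, and 0 in DESeq2.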
